A study of Mus musculus with 18 samples.

Results

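The BCL2 family genes described here are Bcl2, Bcl2l1, Mcl1, Bcl2a1a, Bak1, Bax, Bcl2l11, Bbc3, Pmaip1 and Bid. They were followed by microarray in invariant natural killer T (iNKT) cells of the mouse thymus with and without the kinase MST1. Each gene was represented by the brightest probe set, a group of array probes summarised as a single value, that carries its symbol and no other. Of the 10 genes, 9 had such a probe set and all 9 entered the tests, among 13034 genes in all. Bax carried no probe set of its own in the probe annotation used and was not analysed here.

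BCL2 family proteins control whether the outer membrane of the mitochondrion is breached, the step that releases cytochrome c and starts the caspases. The pro-survival members BCL2, BCL-XL (encoded by Bcl2l1), MCL1 and A1 (encoded by the Bcl2a1 genes) hold the effectors BAK (Bak1) and BAX in check. The BH3-only members BIM (Bcl2l11), PUMA (Bbc3), NOXA (Pmaip1) and BID oppose the pro-survival members or activate the effectors. In T cells, BIM is known for its part in the deletion of thymocytes, and signals of IL-7 and IL-15 are known to sustain BCL2, BCL-XL and MCL1.

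The arrays held total RNA of sorted thymic iNKT cells from C57BL/6 mice of 2 genotypes, wild type (WT) and Cd4CreMst1fl/fl (Mst1KO). In the latter, Cre recombinase under the Cd4 promoter acts on floxed alleles of the MST1 gene, Stk4, from the stage at which thymocytes express CD4. The model is thus a loss in T cells and not in all cells of the mouse. Whether the WT mice carried Cre, and the ages of the mice, are not given in the sources used here. Thymocytes were enriched with CD8 microbeads and then sorted for TCRb and binding of the PBS57-loaded CD1d tetramer, without CD24. Sorting by CD44 and NK1.1 gave 3 stages, S1 (negative for both), S2 (CD44 alone) and S3 (both). Each of the 6 combinations of genotype and stage has 3 arrays, 18 in all, from 3 mice per genotype according to the series design, and the labels name no treatment. By that design the stages of a genotype may share mice. The main tests of stage steps, genotypes and interactions nevertheless treated all 18 arrays as independent. Replicate numbers are not tied to mice in the labels, and the p-values therefore reflect only how far these samples scatter, part of which may be technical.

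The promoters of 4 genes are shown, since the genotypes differed in Bcl2l11 and Bak1 at S3 and since those of Bcl2a1a and its copy Bcl2a1d are nearly identical. Transcript and probe sequences of these copies were not compared, so the promoters do not show what their probe sets can tell apart. The sequences are the 250 bases before the annotated start in RefSeq, on the mouse build GRCm38.p6, written 5′ to 3′ along the gene's strand. They lie at chr2:128125788-128126037 on the plus strand (Bcl2l11, upstream start), chr17:27028628-27028877 on the minus strand (Bak1), chr9:88956670-88956919 on the plus strand (Bcl2a1a) and chr9:88731851-88732100 on the minus strand (Bcl2a1d). Capitals mark exact matches to a searched motif.
Bcl2l11: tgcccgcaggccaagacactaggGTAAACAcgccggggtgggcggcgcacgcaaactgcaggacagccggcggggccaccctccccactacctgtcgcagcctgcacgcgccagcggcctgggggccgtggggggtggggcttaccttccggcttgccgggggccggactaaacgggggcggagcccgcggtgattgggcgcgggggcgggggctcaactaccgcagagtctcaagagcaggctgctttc
Bak1: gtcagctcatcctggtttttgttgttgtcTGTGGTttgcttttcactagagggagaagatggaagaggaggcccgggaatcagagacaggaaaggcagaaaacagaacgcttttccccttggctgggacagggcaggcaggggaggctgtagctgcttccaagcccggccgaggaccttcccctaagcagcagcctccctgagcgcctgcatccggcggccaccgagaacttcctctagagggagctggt
Bcl2a1a: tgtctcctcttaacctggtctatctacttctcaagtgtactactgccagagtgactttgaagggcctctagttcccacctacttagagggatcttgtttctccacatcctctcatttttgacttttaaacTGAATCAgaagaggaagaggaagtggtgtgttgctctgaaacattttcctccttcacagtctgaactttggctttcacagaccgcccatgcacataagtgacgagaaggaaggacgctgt
Bcl2a1d: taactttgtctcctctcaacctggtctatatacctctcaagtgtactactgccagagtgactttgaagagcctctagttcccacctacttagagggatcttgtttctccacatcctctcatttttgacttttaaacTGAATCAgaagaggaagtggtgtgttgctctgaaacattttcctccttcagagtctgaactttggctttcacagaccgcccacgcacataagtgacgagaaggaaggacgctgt
Motifs were searched on both strands in 16 promoters of the family. They cover 9 of the 10 genes, with Bax and without Pmaip1, whose promoter was not searched, together with Bcl2a1b and Bcl2a1d. Some genes have several starts and so several windows in which a match can occur, whereas the shares below are per window. The FOXO motif GTAAACA stood in the upstream Bcl2l11 promoter and in 1 of the 3 Bbc3 promoters, against 3.17% of 32851 mouse promoter windows of the same length. The downstream Bcl2l11 promoter matched none of the motifs. The RUNX motif TGTGGT stood in the Bak1 promoter, against 14% of the windows. The AP-1 motif TGANTCA, which reads the same on both strands, stood in Bcl2a1a, Bcl2a1b and Bcl2a1d, against 6.75%. The T-box motif TCACACC stood in 1 of the 3 Bcl2l1 promoters, against 3.33%. No match was found to the STAT motif TTCNNNGAA (7.02% of windows), the NF-kB motif (GGGA, any base, TT, any base, CC, in 0.98%) or the ETS motif CCGGAAGT (2.88%), and none of the motifs matched in Bcl2, Mcl1, Bid or Bax. The Bcl2a1a and Bcl2a1d windows shared 238 identical bases, with 6 mismatches and 12 gap bases, or 97.5% identity over the aligned bases. A match describes letters in these windows and does not show binding.

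Values are log2 expression as deposited, so a difference of 1 is a doubling. Array medians lay between 4.81 and 4.93, and arrays of the same group correlated at 0.976 to 0.986 over all probe sets. The mean Stk4 level in Mst1KO and WT was 7.61 and 7.90 at S1 (adjusted p = 0.34), 7.48 and 7.83 in S2 cells (adjusted p = 0.173), and 7.66 and 8.04 in S3 cells (adjusted p = 0.0767), and the average over stages passed the test (-0.34 ± 0.06, adjusted p = 0.0297). Whether the Stk4 probes lie in the deleted part was not established. Bcl2, Mcl1 and Bcl2a1a were above the 75th percentile of every array, Bak1 on 14 arrays, Bcl2l11 on 10 and Bid on 2. Bcl2l1, Pmaip1 and Bbc3 never were, and Bbc3 exceeded the array median on 13 of 18 arrays, so its changes were measured close to background. Levels of different genes were not compared, because probe sets differ in response.

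The family moved mainly with the stage of the cells, and most at the step from S2 to S3. A gene was called when its p-value, adjusted by the Benjamini-Hochberg method over all 13034 genes in limma, was under 0.05. From S2 to S3 in WT, 5 of 9 members rose and 1 fell, where 23.6% of all genes were called in either direction, 10.4% higher and 13.2% lower. In Mst1KO, 5 of 9 rose over the same step and none fell, where 17.2% of all genes were called, 8.01% higher and 9.18% lower. The median difference of the 9 members was 0.48 in WT and 0.47 in Mst1KO, beside -0.00098 and -0.03 over all genes. From S1 to S2, 2 of 9 rose in WT and none fell, where 3.84% of all genes were called, 2.70% higher and 1.14% lower. Over that step in Mst1KO 2 rose and 1 fell, where 6.67% were called, 3.77% higher and 2.90% lower. Comparisons of consecutive stages in a genotype share the S2 arrays.

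**Figure D1:**
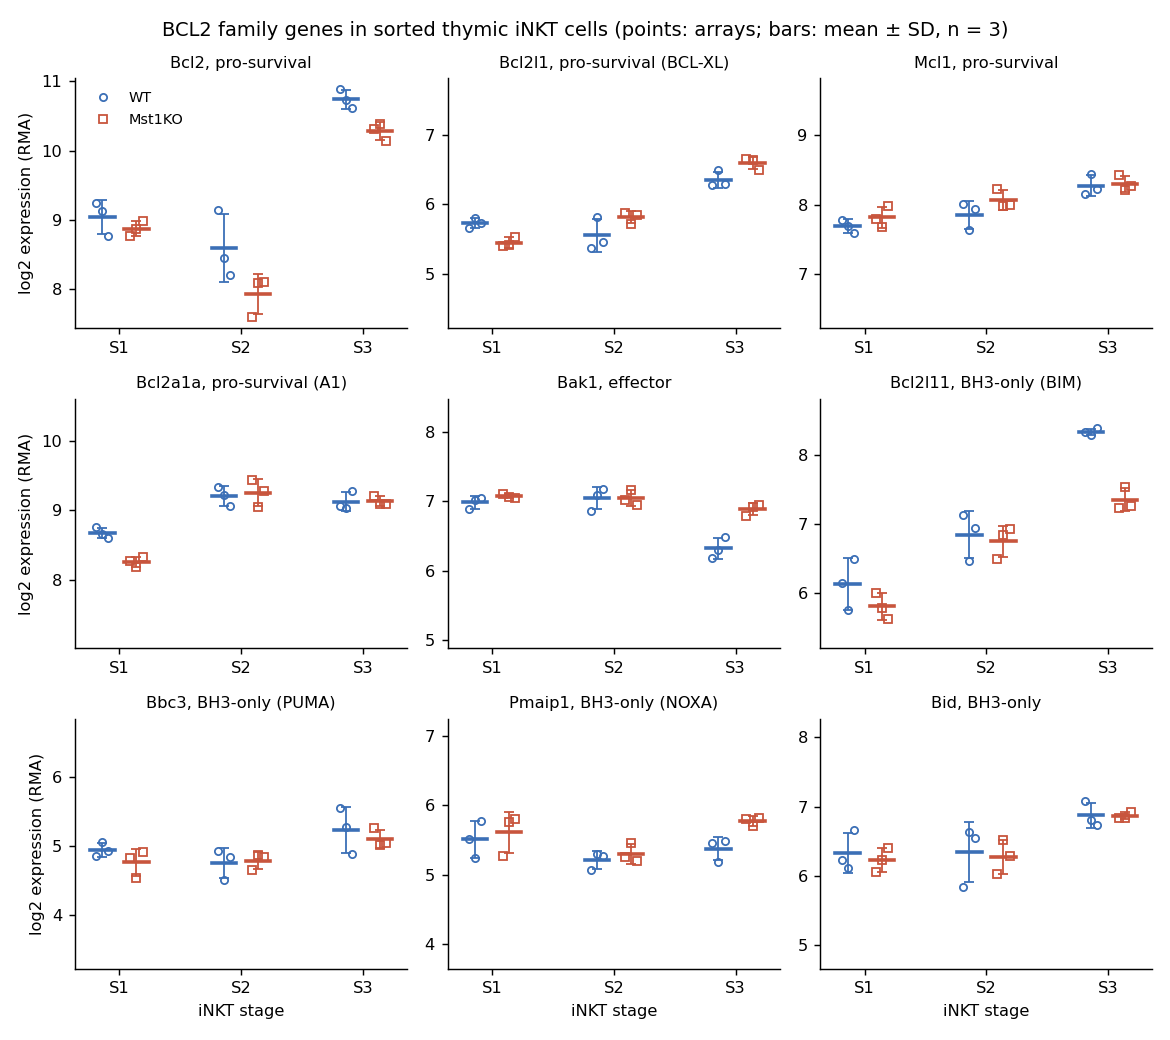
Log2 expression of the 9 measured genes (y axis, each panel spanning the same height) at S1, S2 and S3 (x axis) in WT (blue circles) and Mst1KO (red squares). Points are arrays, and bars are means ± SD (n = 3). Bcl2 and Bcl2l11 span the widest range, and at S3 the arrays of the genotypes stand apart in 5 of the 9 genes, of which Bcl2l11 and Bak1 were called.

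Between genotypes, the members called at any stage were Bcl2l11, which was lower in Mst1KO at S3, and Bak1, which was higher there. These were 2 of 9 members, where 3.40% of all genes were called, 2.35% higher and 1.05% lower. At S1 and at S2 limma called 0 of 9, against 0.330% and 1.17% of all genes, with 2 of 9 members at an unadjusted p under 0.05 at each stage. Averaged over the stages it also called 0 of 9, against 2.17%, with 3 of 9 at an unadjusted p under 0.05. With a variance trend and a robust fit, 1 member was called at S1 and 1 on average. The arrays of the genotypes did not overlap in 5 of 9 members at S3, against 23.0% of all genes, in 2 of 9 at S1 (18.1%) and in 1 of 9 at S2 (16.8%). The members' median difference was -0.17 at S1, 0.03 at S2 and 0.0096 at S3, beside all-gene medians of 0.0074, 0.01 and 0.0097.

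**Figure D2:**
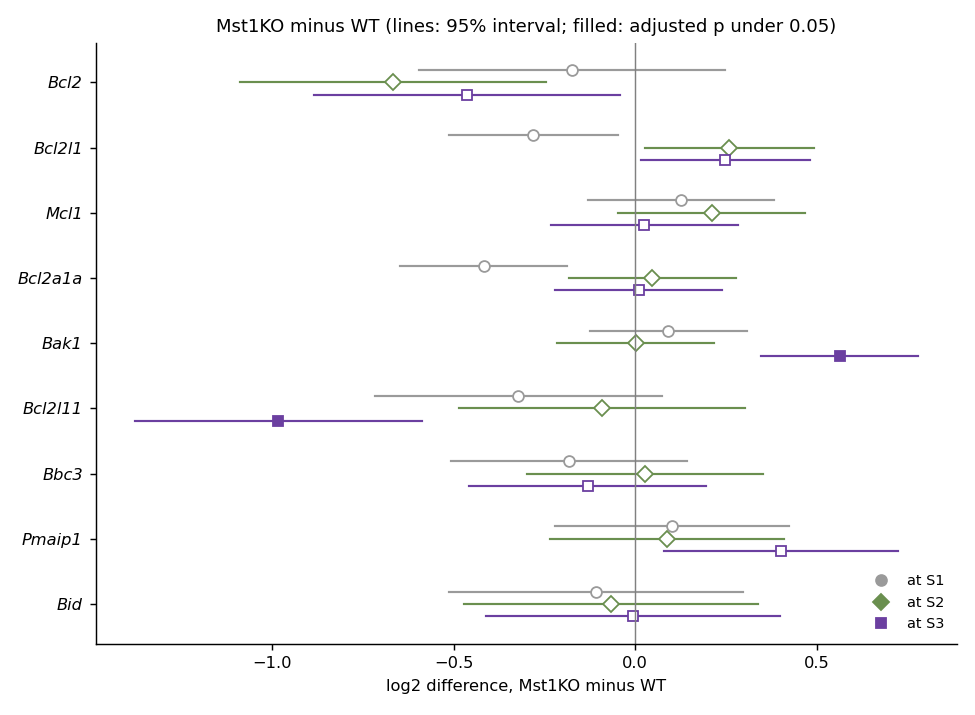
Log2 difference Mst1KO minus WT (x axis) for each measured gene (y axis) at S1 (grey circles), S2 (green diamonds) and S3 (purple squares), with 95% intervals from the fit. Filled symbols mark an adjusted p under 0.05, which holds for Bak1 (0.56) and Bcl2l11 (-0.98) at S3.

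Bcl2, the pro-survival gene after which the family is named, had the largest change between stages of the 9. Its WT arrays read 9.24, 9.14 and 8.77 at S1, then 9.15, 8.45 and 8.20 at S2 and finally 10.89, 10.74 and 10.61 at S3. In Mst1KO they read 8.77, 8.88 and 8.99 at S1, then 7.60, 8.10 and 8.10 at S2 and finally 10.32, 10.39 and 10.14 at S3. Every S3 array thus lay above every array of the earlier stages. The rise from S2 to S3 was 2.15 ± 0.20 in WT (4.43-fold, adjusted p = 6.89e-07) and 2.35 ± 0.20 in Mst1KO (5.10-fold, adjusted p = 4.66e-07), n = 3 arrays per group. These changes differed between genotypes by 0.20, with a 95% interval of -0.39 to 0.80 (interaction, adjusted p = 0.846).

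Bcl2 also dipped at S2 in Mst1KO, where it fell by 0.94 ± 0.20 from S1 (adjusted p = 0.00739) and the arrays of the stages did not overlap. In WT the same difference was -0.45 ± 0.20 and did not pass (adjusted p = 0.262). The WT S2 arrays were spread, with replicate 1 at 9.15 inside the S1 range, and without that array the WT difference was -0.73 (adjusted p = 0.0305). Without WT S2 replicate 3 it was -0.25 (adjusted p = 0.59). These differences themselves differed by -0.49 ± 0.28 (adjusted p = 0.81). Beside WT, Bcl2 in Mst1KO was -0.17 ± 0.20 at S1 (adjusted p = 0.798), -0.67 ± 0.20 at S2 (adjusted p = 0.124) and -0.46 ± 0.20 at S3 (adjusted p = 0.25). At S2 and S3 the genotypes' arrays did not overlap, yet neither difference passed the threshold. The average over stages was -0.43 ± 0.13 (adjusted p = 0.153). Without WT S2 replicate 1 the S2 difference was -0.39 (adjusted p = 0.311), and without WT replicate 1 the average was -0.29 (adjusted p = 0.249). In order of mean level the groups ran Mst1KO S2, WT S2, Mst1KO S1, WT S1, Mst1KO S3 and WT S3, where WT S2 overlapped with Mst1KO S1, and Mst1KO S1 with WT S1, and the other neighbours stood apart. A dimmer second Bcl2 probe set was read close to background, with group means of 3.87 to 4.58, below the lowest array median of 4.81. It rose by 0.71 ± 0.17 from S2 to S3 in WT (adjusted p = 0.0121 over 23167 probe sets). In Mst1KO that difference was 0.40 ± 0.17 (adjusted p = 0.176). It did not show the Mst1KO dip from S1 to S2 (0.066 ± 0.17, adjusted p = 0.91). Mst1KO minus WT at S2 had the opposite sign (0.19 ± 0.17, adjusted p = 0.746). The S1 to S2 difference in WT and the genotype differences at S1 and S3 had the brighter probe set's sign (-0.28, -0.15 and -0.12) without passing.

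Bcl2a1a, which encodes the short-lived pro-survival protein A1, rose at the earlier step. It read 8.75, 8.65 and 8.61 at S1 in WT and 8.26, 8.18 and 8.32 in Mst1KO. At S2 it read 9.34, 9.23 and 9.06 in WT and 9.44, 9.05 and 9.28 in Mst1KO, and at S3 9.06, 9.03 and 9.28 in WT and 9.21, 9.09 and 9.09 in Mst1KO. No S1 array reached any array of the later stages. From S1 to S2 Bcl2a1a rose by 0.54 ± 0.11 in WT (1.45-fold, adjusted p = 0.00787) and by 1.00 ± 0.11 in Mst1KO (adjusted p = 2.03e-05). The WT call was lost without WT S2 replicate 1 (0.47, adjusted p = 0.0516) and when only the 2 groups were fitted (adjusted p = 0.0661). The step to S3 was -0.09 ± 0.11 in WT and -0.12 ± 0.11 in Mst1KO, with adjusted p = 0.624 and 0.491.

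At S1 the Mst1KO arrays of Bcl2a1a all lay below the WT arrays, by 0.42 ± 0.11 on average. This difference did not pass (adjusted p = 0.123), and it did with a variance trend and robust fit (adjusted p = 0.0498) or with array weights (-0.44, adjusted p = 0.0462). At S2 and S3 the genotypes differed by 0.05 (95% interval -0.18 to 0.28) and 0.0096 (-0.22 to 0.24). The larger rise in Mst1KO, 0.46 ± 0.15 above that in WT, did not pass the test of the interaction (adjusted p = 0.509).

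The mouse carries several Bcl2a1 copies, and 2 further probe sets name more than 1 of them, so none of these rises belongs to Bcl2a1a alone with certainty. The probe set naming Bcl2a1b and Bcl2a1a rose from S1 to S2 by 0.73 ± 0.11 in WT (adjusted p = 0.00242) and 1.12 ± 0.11 in Mst1KO (adjusted p = 3.67e-05), with p-values adjusted over 23167 probe sets. The probe set naming Bcl2a1d, Bcl2a1a and Bcl2a1b rose by 0.50 ± 0.08 (adjusted p = 0.00675) and 0.77 ± 0.08 (adjusted p = 0.000107). Its S1 difference between genotypes was -0.25 ± 0.08 (adjusted p = 0.332), in the direction seen in Bcl2a1a. Bcl2a1c, measured by a dim probe set of its own, was higher at S2 than at S1 by 0.54 ± 0.20 in WT and 0.62 ± 0.20 in Mst1KO without passing (adjusted p = 0.257 and 0.116).

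**Figure D3:**
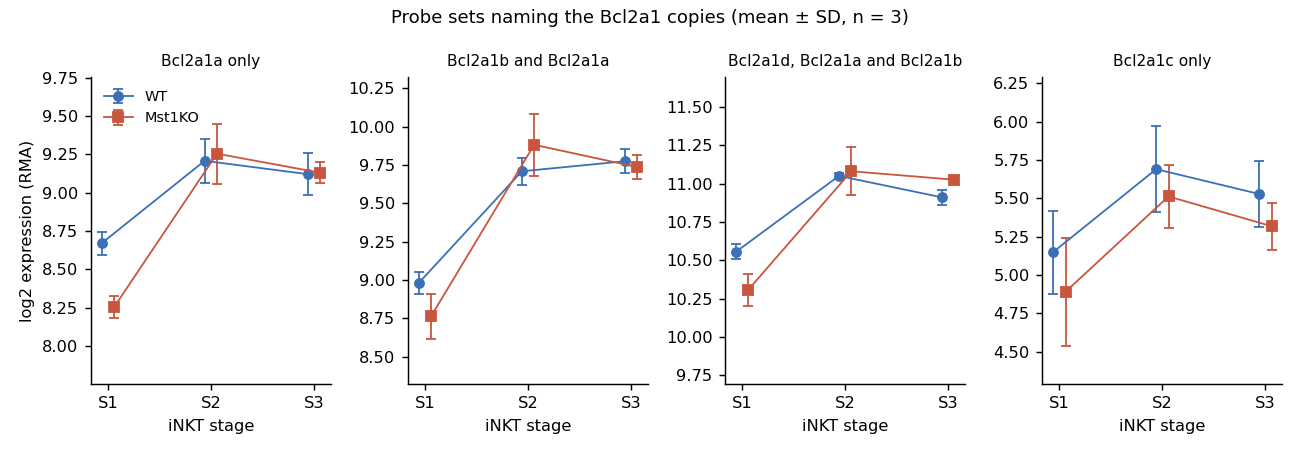
Mean log2 expression (y axis, panels of equal height) at each stage (x axis) for the 4 probe sets that name Bcl2a1 copies, in WT (blue) and Mst1KO (red), with SD (n = 3). The 3 brighter probe sets climb from S1 to S2, and their S1 means lie lower in Mst1KO without a call.

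Bcl2l1, the gene for BCL-XL, rose from S2 to S3 by 0.80 ± 0.11 in WT (1.74-fold, adjusted p = 4.36e-05) and by 0.78 ± 0.11 in Mst1KO (1.72-fold, adjusted p = 8.04e-05). The WT arrays read 5.66, 5.80 and 5.73 at S1, then 5.38, 5.82 and 5.46 at S2 and finally 6.27, 6.49 and 6.29 at S3. In Mst1KO they read 5.40, 5.41 and 5.54, then 5.88, 5.71 and 5.85, then 6.66, 6.64 and 6.50. The S3 arrays stood above all others in both genotypes, and the rises differed by -0.01 (95% interval -0.34 to 0.32). The path to S2 had opposite signs, with -0.17 ± 0.11 in WT (adjusted p = 0.472) and 0.37 ± 0.11 in Mst1KO (adjusted p = 0.0576, and 0.0356 with array weights). The difference between these changes was 0.54 ± 0.16 and did not pass (adjusted p = 0.404). Mst1KO minus WT was -0.28 ± 0.11 in S1 cells (adjusted p = 0.335), 0.26 ± 0.11 in S2 cells (adjusted p = 0.303) and 0.25 ± 0.11 in S3 cells (adjusted p = 0.266). The S2 difference was 0.17 without WT S2 replicate 1 and 0.39 without WT S2 replicate 2 (adjusted p = 0.578 and 0.0931). At S1 every Mst1KO array lay below WT, and at S3 every Mst1KO array lay above it.

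Mcl1, whose unstable product is needed by many lymphocytes, rose in WT at the step to S3, and that call depended on single arrays. Group means ran from 7.69 ± 0.10 (WT S1) through 7.82, 7.86, 8.07 and 8.28 to 8.30 ± 0.11 (Mst1KO S3), and each group overlapped with the next. From S2 to S3 Mcl1 rose in WT by 0.42 ± 0.12 (adjusted p = 0.0184), where the lowest S3 array, at 8.15, lay above all of S2. The call was lost without WT S2 replicate 2 (0.30, adjusted p = 0.101), without WT S3 replicate 2 (0.33, adjusted p = 0.0898), when only the 2 groups were fitted (adjusted p = 0.0854) and when a dim second probe set was averaged in (0.25, adjusted p = 0.217). In Mst1KO the step was 0.23 ± 0.12 (adjusted p = 0.213). Mst1KO minus WT was 0.13 in S1, 0.21 in S2 and 0.03 in S3 cells without passing, and the S3 interval was -0.23 to 0.28.

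Bak1, the effector that forms pores in the mitochondrial membrane, fell at the step to S3 in WT. The WT arrays read 6.89, 7.02 and 7.05 at S1, then 6.87, 7.10 and 7.17 at S2 and finally 6.19, 6.30 and 6.49 at S3. In Mst1KO they read 7.11, 7.07 and 7.05, then 7.02, 7.17 and 6.95, then 6.79, 6.93 and 6.95. The WT S3 arrays were the 3 lowest of the 18 and overlapped with no other group. The fall in WT was 0.72 ± 0.10 on the log2 scale (1.65-fold, adjusted p = 5.67e-05), whereas the Mst1KO difference was -0.16 ± 0.10 (adjusted p = 0.316).

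At S3 Bak1 was 0.56 ± 0.10 higher in Mst1KO than in WT (1.48-fold, 95% interval 0.35 to 0.78, adjusted p = 0.00562). The call was kept in all 6 fits that left out 1 array (adjusted p up to 0.0345) and lost when only the S3 groups were fitted (adjusted p = 0.0581). At S1 and S2 the genotypes differed by 0.09 (-0.13 to 0.31) and 0.0012 (-0.22 to 0.22). The change of the genotype difference from S2 to S3 was 0.56 ± 0.14, and it did not pass over all genes (unadjusted p = 0.0013, adjusted p = 0.123). The S3 effect was therefore not shown to differ from that at S2.

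Bcl2l11, the gene for the BH3-only protein BIM, was called at more comparisons than any other member, in all 4 stage steps and at S3 between genotypes. Its WT arrays read 6.14, 5.75 and 6.50 at S1, then 7.13, 6.46 and 6.93 at S2 and finally 8.32, 8.28 and 8.38 at S3. The Mst1KO arrays read 6.01, 5.79 and 5.63, then 6.50, 6.84 and 6.92, then 7.23, 7.54 and 7.26. Levels climbed with stage in both genotypes, and the WT S3 arrays stood above all others.

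From S1 to S2 Bcl2l11 rose by 0.71 ± 0.19 in WT (adjusted p = 0.0416) and 0.94 ± 0.19 in Mst1KO (adjusted p = 0.00442). The WT arrays of those stages overlapped, and the WT call was lost without S1 replicate 1 (0.72, adjusted p = 0.113), S1 replicate 2 (0.53, adjusted p = 0.193), S2 replicate 1 (0.57, adjusted p = 0.186) or S2 replicate 3 (0.67, adjusted p = 0.117). It was also lost without the filter (adjusted p = 0.0609) and when only the 2 groups were fitted (adjusted p = 0.202). From S2 to S3 Bcl2l11 rose by 1.48 ± 0.19 in WT (2.80-fold, adjusted p = 1.64e-05) and by 0.59 ± 0.19 in Mst1KO (1.51-fold, adjusted p = 0.0375). The Mst1KO call was lost in 5 of the 6 fits that left out 1 array, all but that without S2 replicate 3, with values of 0.47 to 0.65 and adjusted p of 0.0611 to 0.146. It was lost too without the filter (adjusted p = 0.055), under repeated quantile normalization (0.52, adjusted p = 0.0598) and under median centring (0.57, adjusted p = 0.052).

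At S3 Bcl2l11 was lower in Mst1KO by 0.98 ± 0.19 (1.98-fold, 95% interval of the log2 difference -1.38 to -0.59, adjusted p = 0.00712). The highest Mst1KO array, at 7.54, lay below the lowest WT array, at 8.28. This call was kept under all 9 other settings and in all 6 fits without 1 array, where the difference ran from -1.08 to -0.93 and adjusted p reached 0.0387. At S1 the difference was -0.32 ± 0.19 (adjusted p = 0.559) and at S2 -0.09 ± 0.19 (adjusted p = 0.893). The S1 difference ran from -0.14 without WT S1 replicate 3 to -0.51 without WT S1 replicate 2 (adjusted p = 0.864 and 0.361), and the S2 difference from -0.28 without WT S2 replicate 2 to 0.053 without WT S2 replicate 1 (adjusted p = 0.59 and 0.945). Its change from S2 to S3 was -0.89 ± 0.26 (unadjusted p = 0.00375, adjusted p = 0.184), so the smaller rise in Mst1KO was not shown over all genes. The average over stages was -0.47 ± 0.11 and missed the threshold (adjusted p = 0.0844). It passed with a variance trend and robust fit (adjusted p = 0.0451) and without WT replicate 2 (-0.60, adjusted p = 0.0217).

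Set within each array against its pro-survival target Bcl2, Bcl2l11 gained ground from S1 to S2 and lost it from S2 to S3. The log2 difference of Bcl2 minus Bcl2l11, whose size depends on the probes and is not itself interpreted, moved by -1.17 in WT and -1.89 in Mst1KO over the first step. Over the step to S3 it moved by 0.66 in WT and 1.76 in Mst1KO. Between genotypes, Mst1KO minus WT in this quantity was 0.15 at S1, -0.57 at S2 and 0.52 at S3. The arrays of the genotypes overlapped at S1 and did not at S2 or S3. These are descriptions of unequal change without a test.

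Of the remaining BH3-only genes, Bbc3, which encodes PUMA, rose from S2 to S3 in WT by 0.48 ± 0.15 (adjusted p = 0.0324), with overlapping arrays (4.51 to 4.93 at S2 and 4.89 to 5.55 at S3). The call was lost without S3 replicate 1 (0.32, adjusted p = 0.164), S3 replicate 2 (0.46, adjusted p = 0.085), S2 replicate 2 (0.35, adjusted p = 0.149) or S2 replicate 3 (0.52, adjusted p = 0.0506). It was also lost without the filter (adjusted p = 0.0509), under repeated quantile normalization (0.45, adjusted p = 0.0557), under median centring (0.44, adjusted p = 0.0609) and when only the 2 groups were fitted (adjusted p = 0.134). In Mst1KO the step was 0.32 ± 0.15 (adjusted p = 0.178).

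Pmaip1, which encodes NOXA, a partner mainly of MCL1 and A1, rose from S2 to S3 in Mst1KO by 0.47 ± 0.15 (adjusted p = 0.0414), from 5.25, 5.46 and 5.19 to 5.80, 5.70 and 5.82. Bid, whose product is cleaved by caspase-8, rose at the same step in Mst1KO by 0.59 ± 0.19 (adjusted p = 0.0422), from 6.03, 6.51 and 6.28 to 6.84, 6.83 and 6.92. Both calls were lost in 5 of 6 fits without 1 array, all but that without Mst1KO S2 replicate 2, with adjusted p up to 0.13 for Pmaip1 and 0.156 for Bid. Both were lost without the filter (adjusted p = 0.0644 and 0.0625), under repeated quantile normalization (0.0845 and 0.0951) and under median centring (0.0579 and 0.0592). In WT the differences were 0.16 ± 0.15 for Pmaip1 (adjusted p = 0.505) and 0.53 ± 0.19 for Bid (adjusted p = 0.0542). Bid in WT passed with a variance trend and robust fit (adjusted p = 0.049), with the replicate block (adjusted p = 0.0451), without WT S2 replicate 2 (0.68, adjusted p = 0.0296) and without WT S2 replicate 3 (0.64, adjusted p = 0.0458). Without WT S2 replicate 1, whose value of 5.84 was the lowest, it was 0.28 (adjusted p = 0.266).

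Between genotypes, Pmaip1 at S3 was 0.40 ± 0.15 higher in Mst1KO with arrays that did not overlap (5.45, 5.18 and 5.48 in WT), and it did not pass (adjusted p = 0.182). Bbc3 and Bid at S3 differed by -0.13 (95% interval -0.46 to 0.19) and -0.0073 (-0.41 to 0.40). None of the 9 members passed a test of whether a stage change differed between genotypes. For the step from S1 to S2, limma called 0.0153% of all genes, and 2 of 9 members had an unadjusted p under 0.05 (Bcl2l1 and Bcl2a1a). For the step from S2 to S3 it called 0.368%, with 2 of 9 members under 0.05 (Bak1 and Bcl2l11).

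**Figure D4:**
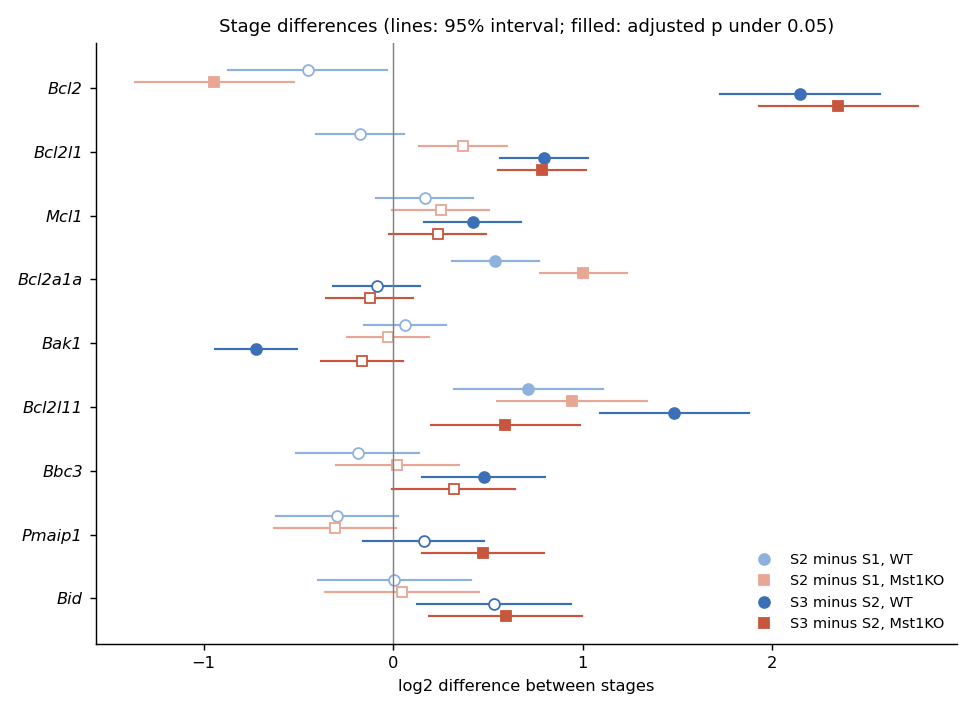
Log2 difference between consecutive stages (x axis) for each measured gene (y axis), in WT (blue circles) and Mst1KO (red squares), pale for S2 minus S1 and dark for S3 minus S2. Lines are 95% intervals, and filled symbols mark an adjusted p under 0.05. Bcl2 and Bcl2l1 rise from S2 to S3 in both genotypes, and the fall of Bak1 is called in WT.

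The wider cell death pathway was read from 5 lists, in which 47 of 61 genes were measured. From S2 to S3, 9 rose and 6 fell in WT and 7 rose and 5 fell in Mst1KO, with medians of 0.02 and -0.05 beside -0.00098 and -0.03 over all genes. The shares of all genes called there were 23.6% in WT and 17.2% in Mst1KO. From S1 to S2, 5 rose in WT, and in Mst1KO 5 rose and 1 fell, against 3.84% and 6.67% of all genes. Between genotypes 1 was called at S1, 0 at S2 and 1 at S3, against 0.330%, 1.17% and 3.40%. These were Il4ra, the IL-4 receptor alpha chain, at S1 (1.08 ± 0.18, adjusted p = 0.016) and Myb, a transcription factor of thymocyte survival, at S3 (1.46 ± 0.15, adjusted p = 2.88e-05).

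Of the receptor chains for survival cytokines (6 of 7 measured), 3 of 6 rose at each step in each genotype, and 1 fell from S1 to S2 in Mst1KO (Il21r, -0.61 ± 0.17, adjusted p = 0.04). From S1 to S2, 2.70% of all genes were called higher in WT and 3.77% in Mst1KO, where 2.90% were called lower. From S2 to S3, 10.4% were called higher in WT and 8.01% in Mst1KO. Il2ra, the IL-2 receptor alpha chain, rose from S1 to S2 by 1.55 ± 0.24 in WT (adjusted p = 0.00118) and 1.59 ± 0.24 in Mst1KO (adjusted p = 0.000547), and stood at -0.51 and -0.45 from S2 to S3 without passing (adjusted p = 0.146 and 0.234). Il2rb, the chain shared by the IL-2 and IL-15 receptors, rose from S2 to S3 by 1.00 ± 0.10 in WT (adjusted p = 1.84e-06) and 1.11 ± 0.10 in Mst1KO (adjusted p = 1.07e-06). Il7r, the IL-7 receptor alpha chain, rose from S1 to S2 by 0.67 ± 0.12 in Mst1KO (adjusted p = 0.00164), beside 0.42 ± 0.12 in WT (adjusted p = 0.0562), and its S2 to S3 difference in Mst1KO was -0.23 ± 0.12 (adjusted p = 0.201). Among transcription factors and ligases (16 of 18 measured), 3 rose and 5 fell from S2 to S3 in WT and 2 rose and 3 fell in Mst1KO, where 23.6% and 17.2% of all genes were called. Foxo1, a FOXO factor known to act on Bcl2l11, fell by 0.43 in WT (adjusted p = 0.00347) and 0.53 in Mst1KO (adjusted p = 0.00105). Foxo3 differed by 0.42 ± 0.16 and 0.23 ± 0.16 without passing (adjusted p = 0.0707 and 0.372). Myb fell by 2.74 in WT (adjusted p = 3.35e-09) and 0.88 in Mst1KO (adjusted p = 0.000676).

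Of other BCL2 family genes, 8 of 16 were measured and 0 were called between genotypes. From S2 to S3, 0 of 8 were called in WT and 2 fell in Mst1KO, where 23.6% and 17.2% of all genes were called. From S1 to S2, 0 of 8 were called in WT and 1 rose in Mst1KO, where 3.84% and 6.67% of all genes were called. Bik, a BH3-only gene, rose from S1 to S2 in Mst1KO by 0.69 ± 0.20 (adjusted p = 0.0433), and from S2 to S3 in Mst1KO Bad, another BH3-only gene, fell by 0.51 (adjusted p = 0.028) and Bnip3 fell by 0.39 (adjusted p = 0.0308). Bnip3 was read close to background there, with means of 4.92 at S2 and 4.53 at S3. In the list of caspases, apoptosome and mitochondrial proteins, 12 of 14 were measured. From S2 to S3, 1 of 12 rose and 1 fell in WT and 1 rose in Mst1KO, against the same 23.6% and 17.2%. Cycs, the gene for cytochrome c, fell over that step in WT by 0.36 (adjusted p = 0.00312), and Htra2 rose there by 0.44 ± 0.14 (adjusted p = 0.0254). Casp8, the gene for the caspase that cleaves BID, rose over that step in Mst1KO by 0.33 ± 0.10 (adjusted p = 0.0245). Of the inhibitor of apoptosis genes (5 of 6 measured), 1 rose from S1 to S2 in WT and 0 were called in Mst1KO. From S2 to S3, 2 of 5 rose in WT and 1 in Mst1KO, with the same shares of all genes as above. Birc3 rose from S1 to S2 in WT by 0.35 ± 0.09 (adjusted p = 0.0434), and Birc2 rose from S2 to S3 in WT by 0.42 ± 0.12 (adjusted p = 0.0179). Naip2 rose from S2 to S3 by 1.51 ± 0.41 in WT (adjusted p = 0.0124) and 1.34 ± 0.41 in Mst1KO (adjusted p = 0.0319). Its S2 means of 4.38 in WT (SD 0.63) and 4.07 in Mst1KO (SD 0.70) lay below the lowest array median of 4.81, close to background.

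Genes listed as markers of cycling, of other cell types and of stress moved along with the members. Sorted iNKT cells may express such genes themselves, so these lists do not measure admixture. In WT S2 cells, for example, the listed gamma-delta genes Blk and Cd163l1 had means of 9.21 and 7.61. Which cells the signals came from was not tested. Beside the counts below, the shares of all genes called from S2 to S3 were 23.6% in WT and 17.2% in Mst1KO. From S1 to S2 they were 3.84% and 6.67%. Between genotypes they were 0.330% at S1, 1.17% at S2 and 3.40% at S3. Of the proliferation markers, 8 of 8 measured fell from S2 to S3 in WT (median -2.71) and 7 of 8 in Mst1KO (median -1.76), and at S3 all 8 were above WT in Mst1KO, 1 of them called (median 0.53). Their summed linear signal was 6696 to 8487 at S2 and 2757 to 3533 at S3 in WT, and 5923 to 6520 and 3351 to 3675 in Mst1KO. Markers of NK and innate lymphoid cells rose in 5 of 5 from S2 to S3 in WT (summed signal 743 to 810, then 1911 to 2036) and in 4 of 5 in Mst1KO (811 to 903, then 1935 to 2128), and S3 cells are sorted for NK1.1, itself a receptor of NK cells. Markers of dying or stressed cells rose in 3 of 4 in each genotype at that step, from 1099 to 1570 up to 2338 to 3363 in WT and from 1162 to 2080 up to 3825 to 5574 in Mst1KO. Macrophage and dendritic cell markers rose in 4 of 8 in WT and 5 of 8 in Mst1KO at that step, from 370 to 473 up to 567 to 649 and from 494 to 544 up to 750 to 1028, and 5 of 8 also rose from S1 to S2 in Mst1KO. Gamma-delta T cell markers were higher in Mst1KO at S3 in 2 of 3, with sums of 652 to 691 against 190 to 275. In the same comparison 2 of 5 NK and innate lymphoid markers and 1 of 8 macrophage and dendritic cell markers were called higher in Mst1KO, and none of the 4 markers of dying or stressed cells was called. At S2, 1 marker each of the gamma-delta, NK and macrophage lists was called higher in Mst1KO. Markers of conventional mature T cells were called higher in Mst1KO at S3 in 2 of 9 (sums of 2665 to 3017 against 2528 to 2716), and fell from S1 to S2 in 3 of 9 in WT and 5 of 9 in Mst1KO. At S1, 8 of these 9 lay above WT in Mst1KO (median 0.51) and 0 were called. Their sums there were 6748 to 7369 in Mst1KO against 5206 to 6400 in WT, without overlap. Of double positive thymocyte markers, 5 of 9 were measured and 0 were called between genotypes at any stage, with sums of 386 to 452 against 388 to 420 at S3.

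The part of these markers in the members' differences was not tested. Of the iNKT cell markers, 9 of 12 were measured, with summed signals of 19020 to 22772, and 1 lay below the array median at S1 in both genotypes. This was Klrb1c, the gene for NK1.1 (means of 3.08 in WT and 2.90 in Mst1KO), and S1 cells were sorted as negative for NK1.1. The summed signals are weighted to the brightest markers, among them Cd3d, Cd3e and Cd3g, and do not measure purity. From S2 to S3, 5 of the 9 rose and 2 fell in WT, against 23.6% of all genes called. In Mst1KO 4 rose and 2 fell, against 17.2%. From S1 to S3 in WT, mean Zbtb16 went from 11.77 to 10.15 and mean Slamf6 from 11.56 to 8.15 (SD 1.08 at S3). In Mst1KO they went from 11.76 to 10.56 and from 11.69 to 9.84. The other measured markers of this list had higher means at S3 than at S1 in WT. Among them Tbx21 went from 7.41 to 9.89, Klrb1c from 3.08 to 8.51, Cd44 from 5.53 to 8.04 and Il2rb from 11.10 to 12.59. The difference from S1 to S3 was not tested. At S3, 1 of the 9 was called higher in Mst1KO, against 3.40% of all genes. In these bulk samples, fewer cells of a type and less RNA per cell cannot be told apart. Stk4, Bcl2l1 and Bcl2l11 all lie on chromosome 2, where 30 of 1023 genes (2.93%) were called between genotypes at S3, beside 3.45% of genes on other chromosomes. These shares take no account of distance from Stk4, and an effect of linkage to it was not tested.

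The genes with the most similar profile to each member were found by Pearson correlation over the 18 arrays, which share the stages and therefore correlate in any gene that follows them. Bcl2 was followed most closely by Ubash3a (r = 0.949), Styk1 (0.935) and Gm7265 (0.934), and Bcl2l11 by Nsmaf (0.965), Rgs1 (0.964) and Icam1 (0.963). For Bak1 these were Rexo2 (0.943), Aff3 (0.937) and Dnah8 (0.935), and for Bcl2a1a Maf (0.933), Apol7b (0.927) and F2r (0.921). Bcl2l1 lay nearest to Tyrobp (0.953), Fcgr3 (0.953) and Map3k8 (0.938), and Mcl1 to 1810013L24Rik (0.938), Atp10d (0.925) and Dnajc15 (0.923). Likeness was weaker for Bid (Serpinb9, 0.881, Lrrk1, 0.868, and Agpat2, 0.852), Bbc3 (Pak6, 0.843, Kcnj8, 0.828, and Tmtc4, 0.822) and Pmaip1 (Otub2, 0.810, Tbc1d10a, 0.775, and Tial1, 0.771).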

How the data were processed

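RNA of 18 samples was amplified and hybridised to Affymetrix mouse gene arrays. For each probe set the authors deposited a log2 value. The submitters' processing notes name RMA and Affymetrix Expression Console 1.1. RMA corrects background and normalises the arrays to each other, so a shift shared by all genes is removed. Its annotation level is not given in the sources. Genes were named from GEO's platform annotation. The 41345 probe sets split into 23521 with a single symbol, 1814 with several and 16010 without. Those with a single symbol and a value above their array's median on at least 3 of 18 arrays were kept (13702), and the brightest stood for each of 13034 genes. Of these, 12961 were found in the RefSeq table for GRCm38.p6.

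Groups came from the sample labels. Tests used limma 3.58.1 (R 4.3.3) (a mean per group for 6 groups, moderated statistics), with adjustment over all genes. For the average over stages, values of a genotype and replicate number were averaged first. The members and the gene lists were chosen with earlier results of these data known. The rule for naming genes took all 10 members, any gene of the lists, the 3 genes most correlated with each called member, Stk4 and cell type markers. Alternatives covered the filter, normalisation, variance model, array weights, probe set choice, samples fitted, a replicate block and leaving out each array. The fit was tested on simulated data. The number of arrays, 3 per group, limits the precision. Figures used matplotlib 3.10.9.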

Additional observations from a re-analysis of the deposited data

Results flagged for a closer look

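Bcl2l1 was lower in Mst1KO than in WT on every array at S1 (-0.28 ± 0.11) and higher on every array at S3 (0.25 ± 0.11), so the arrays of the genotypes stood apart in opposite directions at these stages. The genotype difference at S3 minus that at S1 was 0.53 ± 0.16 in limma, with an unadjusted p of 0.00354. It did not pass after adjustment over all 13034 genes (adjusted p = 0.178), where 73 genes did. This test was added after the values had been seen.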

How the results depend on the processing

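Of the 18 calls of members in the 8 stage and genotype comparisons and 2 interactions, 10 were kept under every alternative in which the gene was tested and every fit without 1 array. The number of members called moved by more than 1.5 times in the following cases. For Mst1KO minus WT it became 1 at S1 (from 0) with a variance trend and robust fit and with array weights, 1 at S3 (from 2) when only the groups compared were fitted, and 1 on average over stages (from 0) with the variance trend, and 0 to 1 there without 1 replicate. For S2 minus S1 in WT it became 1 without the filter and 0 when only the groups compared were fitted, and 1 to 2 without 1 array, from 2. For S3 minus S2 in Mst1KO it became 2, from 5, without the filter, with the filter at the 75th percentile (which leaves out dim members), under repeated quantile normalization and under median centring, and 2 to 4 without 1 array. The cause was not tested. Within 1.5 times, it ran from 4 to 7 for S3 minus S2 in WT (from 6) and from 3 to 4 for S2 minus S1 in Mst1KO (from 3). Mst1KO minus WT for Bcl2l11 at S2 (-0.09) ran from -0.28 to 0.053 without 1 array, and changed sign without WT S2 replicate 1 (0.053) or Mst1KO S2 replicate 1 (0.035). Of 53 differences with an unadjusted p of 0.05 or more, 23 changed sign under some alternative, none larger than 0.20 in the main analysis, and 0 were called under any.

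With replicate number as a block, members called numbered 0, 0 and 2 at S1, S2 and S3 between genotypes, 0 on average, 2 and 7 for the WT steps, 3 and 5 for the Mst1KO steps and 0 for both interactions, and Bid in WT was the only call it added. Same-numbered samples of a genotype correlated in their deviations at a median of 0.06 (range -0.05 to 0.21), with 3 of 18 pairs over 0.1. Samples of a genotype with different numbers correlated at a median of -0.02 (range -0.18 to 0.07), with 0 of 36 pairs over 0.1. Same-numbered samples were thus slightly more alike. This was not tested, and whether the numbers pair the samples was left undecided.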
